A study of Mus musculus with 15 samples.

Results

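Circadian clock genes were described in 15 mouse brain RNA sequencing libraries: Per1, Per2, Per3, Dbp, Nr1d1, Nr1d2, Arntl, Clock, Ciart and Bhlhe41. These 10 genes were chosen by symbol, with earlier results of these data known. All 10 were found among the 45777 symbols listed and passed the filter on low counts that left 21821 genes for testing. Levels are read counts scaled to library size (CPM) with TMM, a method that corrects for differences in library composition. Each of the 5 groups had 3 libraries. All mice were kept on a light/dark cycle of 12 h and had 7 days of stabilization. Control mice then had normal diet for 5 weeks. The other 4 groups received MPTP, a toxin that kills dopamine neurons and is used to model Parkinson's disease, at 20 mg/kg/day for 1 week. Afterwards the MPTP group had normal diet for 4 weeks. The levodopa group received the dopamine precursor levodopa at 2 mg/kg/day for 4 weeks, which the protocol gives as oral and the sample labels as intraperitoneal. The 2 remaining groups received a BTK (Bruton's tyrosine kinase) inhibitor for 4 weeks, at 1 µg/kg/day (low dose, also labelled 25 pM) or 2 µg/kg/day (high dose, also labelled 50 pM). Brain region, time of day of collection, strain, sex and age do not appear in the sources used here. The protocol names 8 mice per group. Whether the 3 libraries of a group come from different mice is not stated, so the p-values cover the spread among libraries only, and that spread may be technical.

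The mammalian clock is a transcription loop that runs in nearly every cell. ARNTL (also called BMAL1) and CLOCK pair and activate genes through E-boxes, among them the Per and Cry genes, whose proteins then repress that pair. The receptors NR1D1 and NR1D2 (REV-ERB alpha and beta) repress Arntl, so in a running clock Arntl transcripts peak at roughly the opposite time of day from Nr1d1, Dbp and the Per genes. Per1 and Per2 are in addition induced within a short time by neuronal activity and by light, through cAMP response elements, while Per3 is not known as such an early-response gene.

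Promoter windows, from 250 bases before to 50 after an annotated start, were matched for 9 of the 10 genes in RefSeq (GRCm38.p6), all but Per2. The E-box CACGTG occurred in 3 of the 13 windows of these 9 genes (1 each of Per1, Ciart and Bhlhe41), and in 7.15% of all 32851 windows of the same length. The variant AACGTG, searched as CACGTT and its reverse complement, was present in the window of Nr1d1 and in 4.68% of all windows. A D-box (TTANGTAA), the element bound by DBP, was present in the window of Per3 and in 2.32% of all windows. The full cAMP response element TGACGTCA was in no window of these genes and in 1.79% of all, and the shorter TGACG, which is contained in the full element, was in both windows of Per1 and in 20.8% of all. The ROR element TAGGTCA, to which NR1D1 and the ROR receptors bind, was in 1 of 2 windows of Arntl and in 2.61% of all, and its variant TGGGTCA was in none of the 13 windows of these genes and in 3.98% of all. Both strands were searched, and a match is a description of letters and not a binding site. The windows with matches of the 4 genes that stand for these elements are shown with each match in capitals. They are Per1 at chr11:69098699-69098998 and chr11:69099902-69100201 on the plus strand, Per3 at chr4:151044616-151044915 on the minus strand, Ciart at chr3:95882179-95882478 on the minus strand and Arntl at chr7:113207261-113207560 on the plus strand.
Per1 window 1 (TGACG, then the E-box): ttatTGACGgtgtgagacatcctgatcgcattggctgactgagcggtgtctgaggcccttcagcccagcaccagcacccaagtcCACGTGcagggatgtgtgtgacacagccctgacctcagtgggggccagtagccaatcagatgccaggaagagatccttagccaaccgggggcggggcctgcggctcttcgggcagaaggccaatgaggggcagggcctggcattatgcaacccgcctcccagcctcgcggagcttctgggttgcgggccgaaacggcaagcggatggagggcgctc
Per1 window 2 (TGACG): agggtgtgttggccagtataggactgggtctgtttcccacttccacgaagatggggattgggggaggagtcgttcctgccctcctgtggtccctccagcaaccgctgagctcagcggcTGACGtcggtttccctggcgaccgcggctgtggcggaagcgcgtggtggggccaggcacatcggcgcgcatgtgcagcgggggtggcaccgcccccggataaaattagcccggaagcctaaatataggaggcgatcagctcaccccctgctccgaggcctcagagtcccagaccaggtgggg
Per3 (2 D-boxes): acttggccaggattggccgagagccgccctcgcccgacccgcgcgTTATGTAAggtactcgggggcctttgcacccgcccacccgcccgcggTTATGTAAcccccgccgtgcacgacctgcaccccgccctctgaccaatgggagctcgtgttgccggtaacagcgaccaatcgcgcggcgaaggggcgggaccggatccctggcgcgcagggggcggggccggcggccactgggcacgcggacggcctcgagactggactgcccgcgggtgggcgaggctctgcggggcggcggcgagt
Ciart (3 E-boxes): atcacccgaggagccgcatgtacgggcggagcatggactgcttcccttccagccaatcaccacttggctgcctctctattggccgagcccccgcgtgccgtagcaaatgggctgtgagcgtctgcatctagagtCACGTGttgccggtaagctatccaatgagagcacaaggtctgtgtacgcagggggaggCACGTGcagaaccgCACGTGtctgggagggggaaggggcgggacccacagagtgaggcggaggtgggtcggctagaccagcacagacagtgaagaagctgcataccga
Arntl window 2 (ROR element): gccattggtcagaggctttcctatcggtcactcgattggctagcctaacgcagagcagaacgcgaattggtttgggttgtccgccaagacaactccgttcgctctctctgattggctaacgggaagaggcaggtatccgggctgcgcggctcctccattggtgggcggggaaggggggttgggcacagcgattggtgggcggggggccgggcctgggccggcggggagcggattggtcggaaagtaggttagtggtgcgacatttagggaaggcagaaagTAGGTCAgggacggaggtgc

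Depth was 58149722 to 61998459 reads with inhibitor (6 libraries) and 63314658 to 68257095 without it (9 libraries). Control 2 and levodopa 2 stood apart from the other 13 libraries: the summed CPM of 10 cerebellar markers was 6699 to 8097 there and 110.9 to 334.5 elsewhere. The 6 inhibitor libraries had higher scores of 10 cortex and hippocampus markers (mean log2 CPM relative to the mean over all libraries) than the other 9, at 0.47 to 2.18 against -2.57 to -0.14. Files of the inhibitor libraries also differ from the rest in layout, which does not by itself show a difference in handling of the tissue. Treatment, regional content and any difference in handling cannot be told apart in these libraries. In bulk tissue, fewer cells of a type and less RNA per cell cannot be told apart either.

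Over all 15 libraries the 10 clock genes varied by a moderate amount. The ratio of the highest to the lowest library ran from 1.50 for Bhlhe41 and 1.65 for Clock to 2.70 for Nr1d1 and 2.99 for Per1. Its median over the 10 genes was 2.25, against 2.72 over all 21821 genes tested and 1.82 over the 10757 genes with a mean of at least 10 CPM. The median SD between libraries of a group was 0.31 on the log2 scale for the clock genes, 0.35 for all genes and 0.21 for those of at least 10 CPM. For 7 of the 10 genes (Per2, Per3, Nr1d1, Nr1d2, Arntl, Clock and Ciart) the highest library was control 2 or levodopa 2, and for 5 of them (Per3, Nr1d1, Nr1d2, Clock and Ciart) both of these libraries lay above the other 13. The share of all genes with either pattern was not counted, so neither count can be read as a trait of the clock genes.

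**Figure D1:**
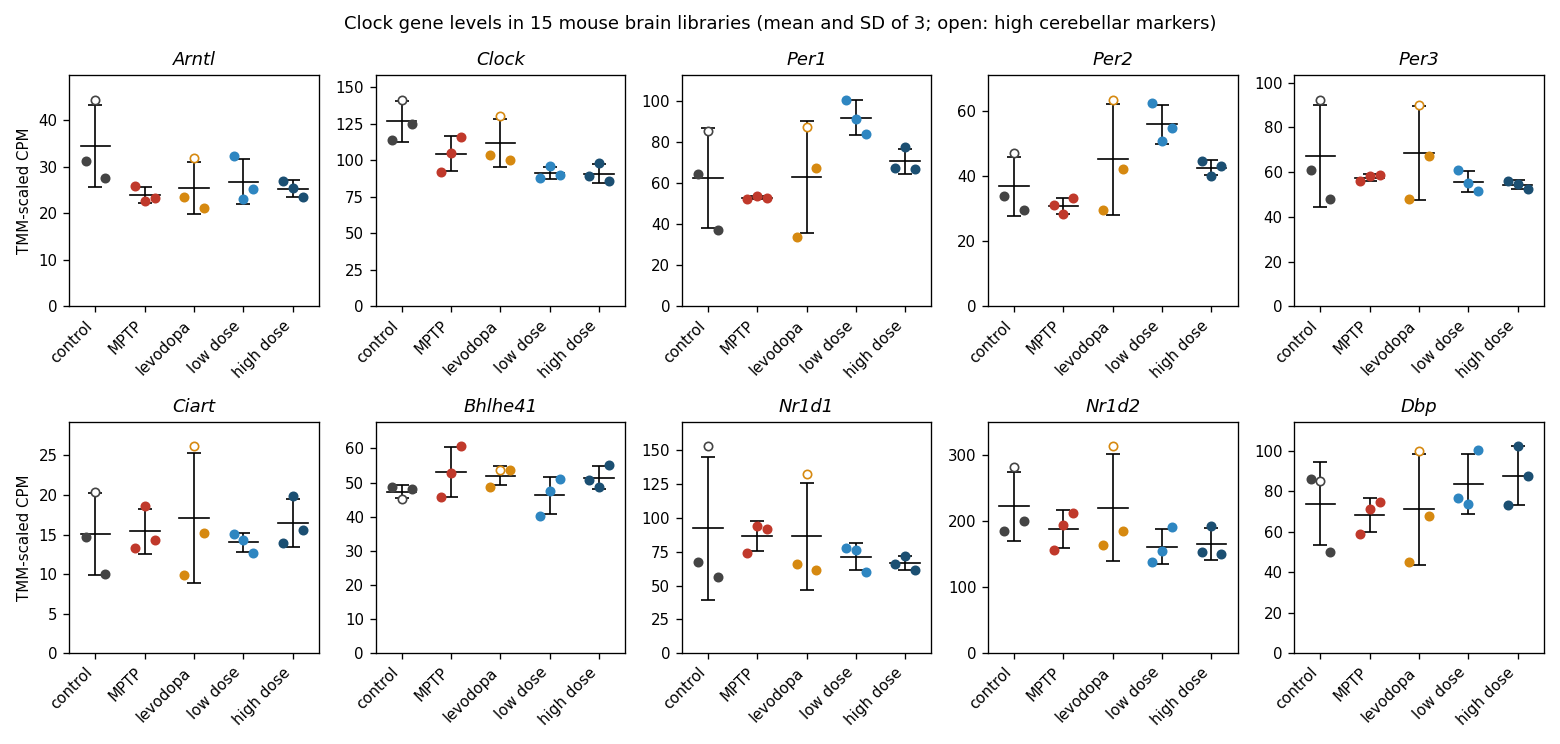
Levels of the 10 clock genes in TMM-scaled CPM (y axis, from 0) in the 5 groups (x axis). Points are libraries, bars are mean and SD of 3, and open points are control 2 and levodopa 2, the libraries of high cerebellar markers.

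Arntl, the activating partner of CLOCK (chr7:113178471-113314126, plus strand, GRCm38), had 31.3, 44.4 and 27.6 CPM in the control libraries and 25.9, 22.5 and 23.2 in the MPTP libraries. Every MPTP library lay below every control library. Its levels in the levodopa libraries were 23.5, 31.8 and 21.1 CPM. The low-dose libraries had 32.2, 23.0 and 25.2 CPM, and the high-dose libraries 27.0, 25.3 and 23.4. Control had the highest mean (34.4 ± 8.85 CPM, SD, n = 3), and the other 4 group means, from 23.9 to 26.8 CPM, differed by less than the spread of the levodopa libraries (SD 5.60).

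Clock, whose protein pairs with ARNTL (chr5:76209868-76305603, minus strand), had 114, 141 and 124 CPM in control and 92.1, 105 and 116 CPM with MPTP. The levodopa libraries had 104, 131 and 100.4 CPM. Its levels were 88.0, 96.0 and 89.7 CPM at the low dose and 89.0, 97.9 and 85.5 CPM at the high dose. All 6 inhibitor libraries were below the 3 control libraries, and they overlapped with MPTP through MPTP 1. The order of the means was control (126.5 ± 13.98 CPM, SD, n = 3), levodopa (111.6 ± 16.47), MPTP (104.4 ± 12.03), low dose (91.2 ± 4.24) and high dose (90.8 ± 6.39), and the libraries of neighbours in this order overlapped.

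The Per genes encode the repressors of the loop. Per1 (chr11:69095108-69109965, plus strand) had 64.6, 85.8 and 37.4 CPM in control and 52.2, 53.8 and 53.0 with MPTP. With levodopa it had 33.7, 87.7 and 67.5 CPM. At the low dose it had 101, 91.2 and 84.1 CPM, and at the high dose 67.4, 77.6 and 67.2. All 6 inhibitor libraries were above the 3 MPTP libraries, which sat close together, while the control and levodopa libraries spread over most of the range.

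Per2 (chr1:91415977-91459351, minus strand) had 33.7, 47.0 and 29.7 CPM in control and 30.9, 28.2 and 33.3 with MPTP. The levodopa libraries had 29.6, 63.4 and 42.2 CPM. Low-dose libraries had 62.2, 50.5 and 54.6 CPM and high-dose libraries 44.5, 40.0 and 43.1. The low-dose libraries lay above all control, MPTP and high-dose libraries, but levodopa 2, with high cerebellar markers, was the highest of all 15. Group means ran from MPTP (30.8 ± 2.55 CPM, SD, n = 3) through control (36.8 ± 9.07), high dose (42.6 ± 2.30) and levodopa (45.1 ± 17.0) to low dose (55.8 ± 5.91), and the 3 in the middle did not differ beyond their spread.

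Per3 (chr4:150997018-151044707, minus strand) had 61.0, 92.4 and 48.0 CPM in control and 55.8, 58.1 and 58.6 with MPTP. The levodopa libraries had 48.0, 90.1 and 67.0 CPM. At the low dose its levels were 60.9, 54.9 and 51.6 CPM, and at the high dose 56.1, 54.6 and 52.4. Apart from control 2 and levodopa 2, its libraries lay between 48.0 and 67.0 CPM, and the inhibitor libraries fell inside the range of the other 9.

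Ciart, whose protein (CHRONO) also represses the ARNTL and CLOCK pair (chr3:95878500-95882257, minus strand), was the least abundant of the 10 in CPM, from 9.91 in levodopa 1 to 26.1 in levodopa 2, and its 5 groups overlapped. Bhlhe41 (DEC2, chr6:145858243-145865420, minus strand), an E-box binding repressor, ran from 40.3 CPM in low-dose 1 to 60.6 in MPTP 3 and varied least. Nr1d2 (chr14:18204056-18239106, minus strand) ran from 138 CPM in low-dose 1 to 313 in levodopa 2. None of these 3 genes separated any group from all the others.

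Nr1d1, the main repressor of Arntl (chr11:98767932-98775377, minus strand), had 67.5, 153 and 56.5 CPM in control and 74.1, 94.3 and 92.1 with MPTP. The levodopa libraries had 65.6, 132 and 61.8 CPM. Low-dose libraries had 78.0, 76.1 and 60.2 CPM and high-dose libraries 65.9, 72.2 and 61.6. The high-dose libraries were all below the MPTP libraries, and the other groups overlapped with MPTP.

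Dbp, an output transcription factor of the clock with one of its widest daily swings (chr7:45705100-45710203, plus strand), had 86.0, 85.1 and 50.0 CPM in control and 58.8, 71.0 and 74.8 with MPTP. Its levels were 45.2, 99.97 and 67.7 CPM with levodopa. They were 76.5, 73.6 and 100.2 CPM at the low dose and 73.0, 102 and 87.4 at the high dose. The 5 groups overlapped, and the range within levodopa covered most of that over all libraries. Annotated exons of an opposite-strand gene cover 18.0% of the exonic bases of Dbp (Sphk2), 8.55% of Nr1d1 (Thra), 19.0% of Bhlhe41 (Gm43909) and 0.439% of Arntl (Gm45355) in GENCODE M21. How the counting treated strand is not stated in these sources, so these 4 genes are less certain than the other 6, which have no such overlap.

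MPTP against control compares libraries 4 weeks after the toxin with control libraries, and none of the clock genes passed the test. These groups also differed in regional markers. Median log2 fold changes were -4.99 for cerebellum, -2.41 for striatum, 2.19 for hypothalamus and 1.50 for dopamine neuron lists, though no marker of these lists passed. The part of striatum, hypothalamus or dopamine neuron content in the clock gene differences was not tested. In edgeR's quasi-likelihood test with Benjamini-Hochberg adjustment, 0 of 10 clock genes passed an adjusted p of 0.05, as did 0% of all genes, and DESeq2 called 0 of the 10 against 0.235% of all genes. At an unadjusted p under 0.05 there were 2 of 10, Arntl and Clock, against 6.62% of all genes. Arntl was lower by a log2 fold change of -0.53 (SE 0.20, adjusted p = 0.717), and Clock by -0.28 (SE 0.13, adjusted p = 0.717). Arntl was the 1 clock gene of 10 whose libraries did not overlap, against 6.2% of all genes lower in this way, and none was higher without overlap, against 6.83%. Of the 10 genes, 8 were lower with MPTP, with a median log2 fold change of -0.23 against -0.01 over all genes. Without control 2 and levodopa 2 the split was 5 lower and 5 higher with a median of 0.02. Nr1d1, the receptor that represses Arntl, differed by -0.09 (SE 0.35, adjusted p = 0.946), and by 0.48 without these 2 libraries.

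Levodopa against MPTP compares libraries given the standard drug after the toxin with those given the toxin alone. None of the clock genes passed there either: 0 of 10 by edgeR's adjusted p, against 0% of all genes, and 0 of 10 by DESeq2, against 0.00923%. At an unadjusted p under 0.05 there was 1 of 10, Per2, against 2.96% of all genes. Per2, a repressor of the loop, was higher by a log2 fold change of 0.55 (SE 0.23, adjusted p = 0.954). Its levodopa libraries overlapped with MPTP, since levodopa 1 had 29.6 CPM. Of the 10 genes 8 were higher with levodopa, with a median log2 fold change of 0.12 against 0.00 over all genes. Without control 2 and levodopa 2, 9 of 10 were lower and the median was -0.09.

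The low inhibitor dose against MPTP gave the only clock gene that passed edgeR's test in any of the 7 comparisons. Per2 rose from 30.8 ± 2.55 to 55.8 ± 5.91 CPM (SD, n = 3 each), a fold of 1.81 and a log2 fold change of 0.86 (SE 0.23, adjusted p = 0.0418, edgeR quasi-likelihood test with Benjamini-Hochberg adjustment). So 1 of 10 clock genes rose against 4.78% of all genes, and 0 of 10 fell against 3.75%. At an unadjusted p under 0.05 there were 2 of 10, Per1 and Per2, against 25.8% of all genes. DESeq2 called 1 of 10, Per2, against 15.7% of all genes. Per1 went from 53.0 ± 0.82 to 92.0 ± 8.42 CPM, a log2 fold change of 0.80 (SE 0.31), and did not pass (adjusted p = 0.126). Per1 and Per2 were the 2 of 10 clock genes with every low-dose library above every MPTP library, against 20.9% of all genes, and none lay below without overlap, against 19.8%.

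The remaining 8 clock genes overlapped between the low dose and MPTP. Per3, the Per gene without an early response, differed by -0.04 on the log2 scale (SE 0.23, adjusted p = 0.929). Dbp differed by 0.29 (SE 0.27, adjusted p = 0.547), Nr1d1 by -0.28 (SE 0.35, adjusted p = 0.659), Arntl by 0.17 (SE 0.20, adjusted p = 0.64) and Clock by -0.19 (SE 0.13, adjusted p = 0.368). The median over the 10 genes was -0.09, against 0.00 over all genes. The Per2 call was lost when any 1 of the 6 libraries compared was left out, with adjusted p from 0.0666 to 0.158 and log2 fold changes from 0.79 to 0.93. With the cerebellum, cortex and thalamus scores as covariates Per2 kept its direction (0.55, adjusted p = 0.682), while Per1 turned to -0.19, in a fit that called 0% of all genes. The cortex scores separate the inhibitor libraries from the rest, so that fit cannot divide tissue content from treatment.

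The high dose against MPTP called 0 of 10 clock genes by edgeR's adjusted p, against 1.97% of all genes, 0 of 10 by DESeq2, against 8.04%, and 0 of 10 at an unadjusted p under 0.05 against 18.5%. Per1 averaged 70.8 ± 5.96 CPM, 0.42 above MPTP on the log2 scale (SE 0.31, adjusted p = 0.518), and Per2 averaged 42.6 ± 2.30 CPM, 0.47 above it (SE 0.23, adjusted p = 0.309). Both had every high-dose library above every MPTP library, 2 of 10 against 20.4% of all genes. Nr1d1 was lower without overlap (-0.38, SE 0.35, adjusted p = 0.62), 1 of 10 against 19.4% of all genes. Dbp differed by 0.36 (SE 0.27, adjusted p = 0.536). Since both doses are compared with the same 3 MPTP libraries, their values share those controls.

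Between the doses, 0 of 10 clock genes passed by edgeR's adjusted p, by DESeq2 or at an unadjusted p under 0.05, against 0%, 0.00923% and 2.23% of all genes. Per1 was lower at the high dose than at the low dose by -0.38 (SE 0.31) and Per2 by -0.39 (SE 0.23), both with an adjusted p of 1 by edgeR. The libraries of these 2 genes did not overlap between the doses, against 5.34% of all genes lower in this way.

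Against control, 0 of 10 clock genes passed at the low dose by edgeR's adjusted p, against 5.4% of all genes, and DESeq2 called 1 of 10, Clock, against 12.9%. At an unadjusted p under 0.05 there were 2 of 10, Per2 and Clock, against 24.4%. Clock differed by -0.47 (SE 0.13, adjusted p = 0.0503) with every low-dose library below every control library, 1 of 10 against 12.2% of all genes. Per2 differed by 0.60 (SE 0.23, adjusted p = 0.139) with every low-dose library above, 1 of 10 against 14% of all genes. Per1 differed by 0.56 (SE 0.31, adjusted p = 0.284).

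At the high dose against control, 0 of 10 passed by edgeR's adjusted p, against 0.376% of all genes, and DESeq2 called 1 of 10, again Clock, against 7.72%. There were 2 of 10 at an unadjusted p under 0.05, Arntl and Clock, against 20% of all genes. Clock, whose protein is part of the activating pair, differed by -0.48 (SE 0.13, adjusted p = 0.0953) and Arntl, its partner, by -0.45 (SE 0.20, adjusted p = 0.233). Both had every high-dose library below every control library, 2 of 10 against 13% of all genes. One test over all 5 groups called 0 of 10 by edgeR's adjusted p, against 7.09% of all genes, with 2 of 10 at an unadjusted p under 0.05 against 23.7%. These were Clock (adjusted p = 0.0919) and Per2 (adjusted p = 0.16), and DESeq2 called 1 of 10, Clock, against 19.5% of all genes.

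**Figure D2:**
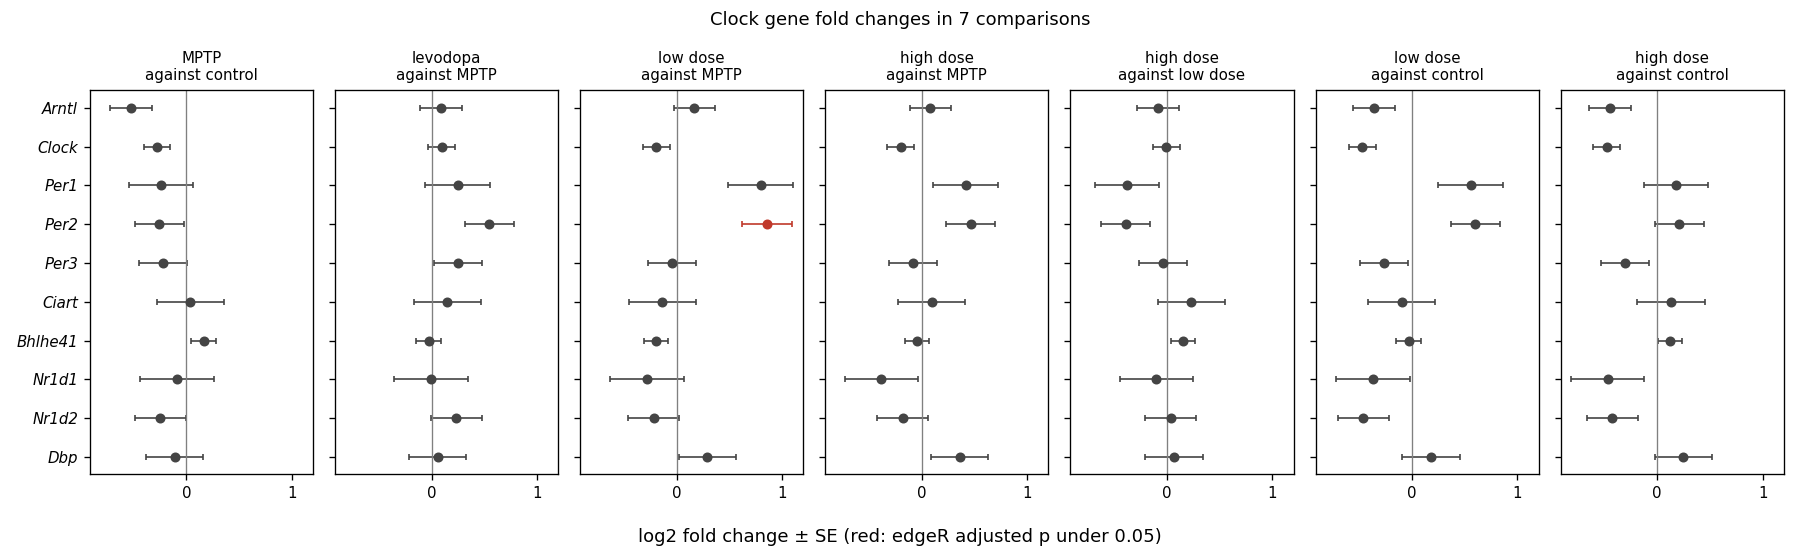
Log2 fold changes of the 10 clock genes with standard errors (x axis) in the 7 comparisons. Per2 at the low dose against MPTP, 0.86, is the only point in red, which marks an edgeR adjusted p under 0.05.

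Per1 and Per2 parted from Per3 in the inhibitor libraries. The ratio of reads of 2 genes within a library does not depend on scaling. It was looked at after the levels had been seen, is not corrected for gene length and is given without a test. Per1 reads per Per3 read were 1.06, 0.929 and 0.779 in control, 0.934, 0.925 and 0.904 with MPTP and 0.702, 0.973 and 1.01 with levodopa. At the low dose they were 1.66, 1.66 and 1.63 and at the high dose 1.20, 1.42 and 1.28. All 6 inhibitor libraries were thus above the other 9, and every low-dose library was above every high-dose library.

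Per2 reads per Per3 read showed the same order, from 0.485 to 0.703 in the 9 libraries without inhibitor, 0.734 to 0.823 at the high dose and 0.920 to 1.06 at the low dose. Control 2 and levodopa 2, which had the highest Per3 levels, fell inside the range of the other libraries without inhibitor for Per1 (0.929 and 0.973), and levodopa 2 was the highest of the 9 for Per2 (0.703). Of all genes tested, 3.99% had reads per Per3 read higher in all 6 inhibitor libraries than in the other 9, and 0.6% had in addition every low-dose library above every high-dose library. In CPM alone, none of the 10 clock genes had all 6 inhibitor libraries above or below the other 9, against 4.69% and 3.87% of all genes.

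Ratios to Arntl set genes of opposite phase against each other. Dbp reads per Arntl read were 2.75, 1.92 and 1.82 in control, 2.27, 3.15 and 3.22 with MPTP and 1.92, 3.15 and 3.21 with levodopa. They were 2.37, 3.20 and 3.97 at the low dose and 2.70, 4.03 and 3.73 at the high dose. Nr1d1 reads per Arntl read ran from 2.05 to 3.44 in control, 2.863 to 4.183 with MPTP and 2.791 to 4.158 with levodopa. They ran from 2.39 to 3.31 at the low dose and 2.441 to 2.85 at the high dose. Every high-dose library was thus below every MPTP library on this ratio, and the share of all genes that do so was not counted. Every group overlapped with at least 1 other on both ratios, and the ratio of Dbp to Arntl varied within the low-dose group from 2.37 to 3.97. Per2 reads per Arntl read, picked after the values were seen, separated control, MPTP and the doses. They were 1.058 to 1.077 in control, 1.196 to 1.433 with MPTP, 1.581 to 1.841 at the high dose and 1.928 to 2.199 at the low dose. Levodopa (1.261 to 2.003) overlapped with all but control. The share of all genes with this order was not counted, and no test was made.

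**Figure D3:**
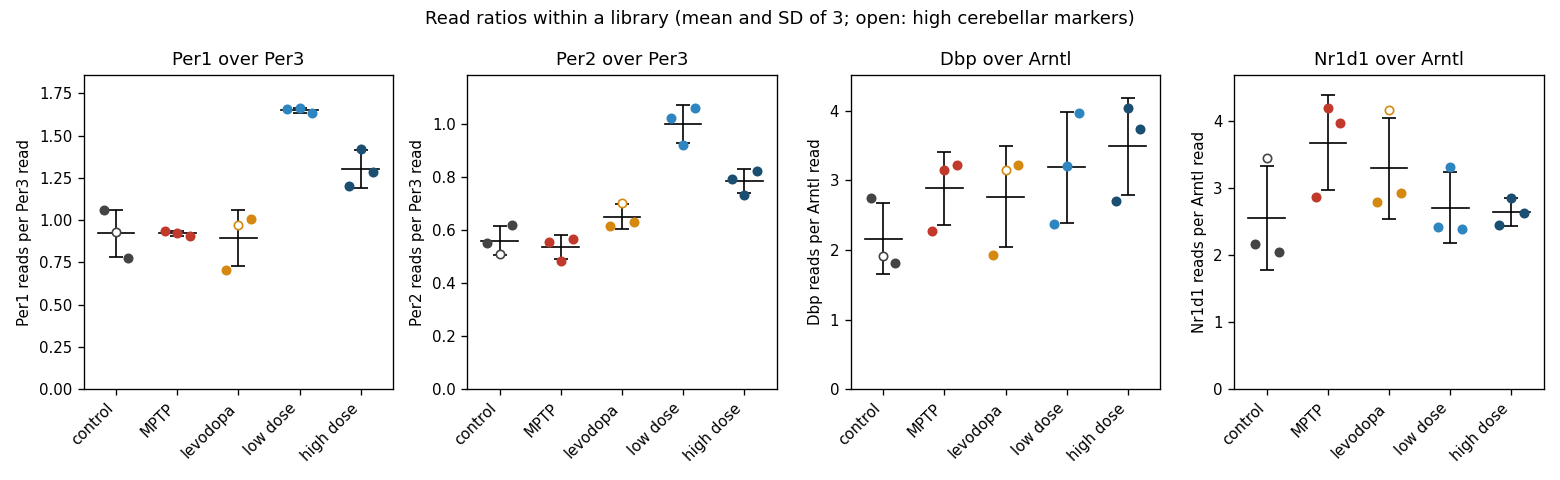
Read ratios within each library (y axis, from 0) by group (x axis), for Per1 and Per2 over Per3 and for Dbp and Nr1d1 over Arntl, with mean and SD of 3 and open points for control 2 and levodopa 2. For Per1 over Per3 the low-dose libraries (1.63 to 1.66) and the high-dose libraries (1.20 to 1.42) sit above the 9 others (0.702 to 1.06). For Dbp over Arntl the groups overlap. For Nr1d1 over Arntl the high-dose libraries (2.441 to 2.85) lie below the MPTP libraries (2.863 to 4.183).

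Of 14 genes known to be induced by neuronal activity, 7 rose at the low dose against MPTP, against 4.78% of all genes, and 5 at the high dose, against 1.08% (edgeR adjusted p under 0.05). None fell, the other 7 and 9 did not pass, and the median log2 fold changes over the list were 0.76 and 0.91 against 0.00 and -0.01 over all genes. This list and the lists below were chosen with earlier results of these data known. Their counts beside the share of all genes are therefore a description and not independent support. Egr1, an early-response transcription factor, rose from 59.7 ± 12.4 to 263 ± 58.8 CPM at the low dose (SD, n = 3), and Arc, an early-response gene of synapses, from 19.96 ± 6.26 to 163 ± 48.4 CPM. The early-response factors Fos (24.7 CPM with MPTP, 27.7 at the low and 33.2 at the high dose) and Fosb (9.78, 9.43 and 7.24 CPM) did not pass at either dose, and were named after their values were seen. The summed CPM of the 14 genes was 199.98 to 256.01 with MPTP, 221.19 to 296.45 with levodopa, 274.13 to 503.61 in control, 478.86 to 861.75 at the high dose and 578.79 to 935.38 at the low dose. Markers of several tissues moved with the same libraries. Of the cortex and hippocampus markers 4 of 10 had risen at the low dose and 2 of 10 at the high dose against MPTP, and summed CPM of 159.07 to 289.85 with MPTP, 834.76 to 1117 at the low dose and 296.10 to 921.64 at the high dose. Control 2 (841.29) and levodopa 2 (718.26) reached into that range. Of the striatum markers 4 of 9 rose at the low dose and 0 of 9 at the high dose, with summed CPM of 210.54 to 269.09 with MPTP, 1371 to 1747 at the low dose and 567.1 to 1486 at the high dose, and up to 2798 in control 1. Of the choroid plexus markers 5 of 8 rose at the low dose and 2 of 8 at the high dose, with summed CPM of 28.5 to 37.3 with MPTP, 907.96 to 1420 at the low dose and 300.71 to 1479 at the high dose. Control had 97.4 to 964.49. Of the endothelial markers 5 of 7 fell at each dose, against 3.75% and 0.884% of all genes, with summed CPM of 215.32 to 334.59 with MPTP, 125.24 to 177.95 at the low dose and 101.25 to 143.27 at the high dose. Control had 163.13 to 204.43. Against control fewer passed: 3 of 14 activity genes rose at the low and 0 of 14 at the high dose. Cortex and hippocampus markers rose in 4 and 1 of 10. No striatum or choroid plexus marker passed at either dose. Endothelial markers fell in 1 of 7 at the low and 0 of 7 at the high dose. Over all genes, 5.4% and 0.376% were called in either direction. The part of activity genes and of tissue content in the levels of Per1 and Per2 was not tested. The fit with cerebellum, cortex and thalamus scores cannot divide tissue content from treatment, since the cortex scores of all inhibitor libraries lay above those of all others.

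**Figure D4:**
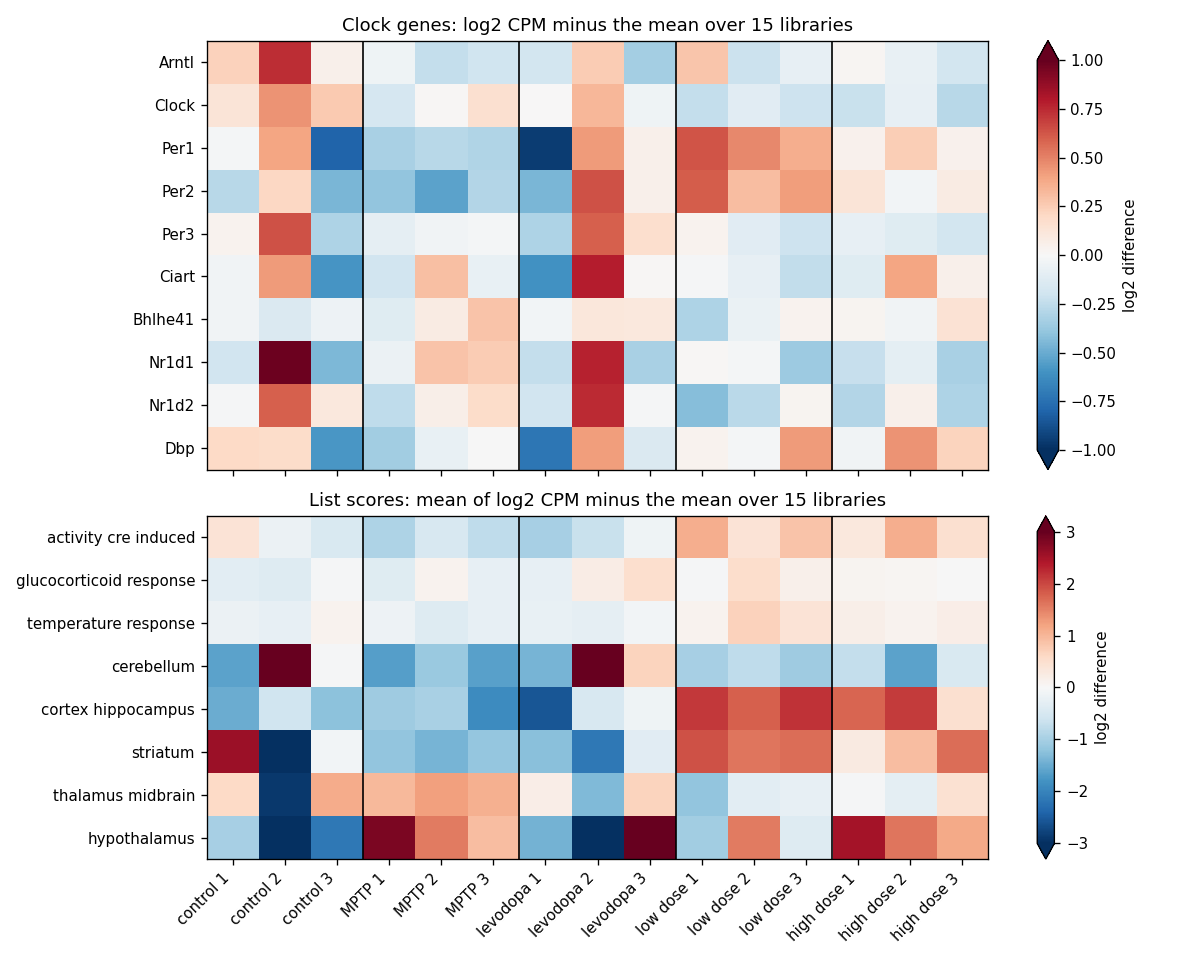
Log2 CPM minus the mean over 15 libraries for the 10 clock genes (upper block) and the mean of the same difference over lists of activity, glucocorticoid, temperature and brain region genes (lower block), with libraries on the x axis and colour scales that end at 1 and 3. Control 2 and levodopa 2 stand out in the cerebellum row and in Nr1d1, Nr1d2, Per3 and Ciart. All inhibitor libraries lie above the rest in the cortex row, and by little in the temperature row (lowest 0.1075, highest other 0.0999). In the activity row control 1 (0.42) lies inside their range (0.32 to 1.08). In the striatum row control 1 (2.56) lies above it (0.27 to 1.90). Per1 and Per2 are high at the low dose and also in levodopa 2.

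Whether Arntl and the other clock genes varied together from library to library was measured on log2 CPM, apart for the 9 libraries without inhibitor and the 6 with it, with 9 relations in each set. Each set pools treatment groups and libraries were permuted across them, so differences between groups enter the correlations and their p-values. In the 9 libraries, all relations but that with Bhlhe41 were positive. The strongest was with Clock, at r = 0.77 (two-sided exact permutation p = 0.0122, adjusted 0.109; Spearman's rho 0.70, exact permutation p = 0.0433, adjusted 0.389). For Nr1d1, whose protein represses Arntl, r was 0.64 (exact permutation p = 0.0601, adjusted 0.135; rho 0.42, p = 0.27, adjusted 0.403), and for Dbp r was 0.50 (exact permutation p = 0.17, adjusted 0.191; rho 0.48, p = 0.194, adjusted 0.403). None of the 9 relations passed the adjusted threshold. The 2 libraries farthest from the median of Arntl were control 2 and levodopa 2, and without them r was 0.39 for Clock, -0.32 for Nr1d1 and 0.15 for Dbp. None of the positive relations was above 0.39 without these 2 libraries, and 6 of 8 turned negative. In the 6 inhibitor libraries, Per3 had the highest r, 0.83 (exact permutation p = 0.05, adjusted 0.425; rho 0.60, p = 0.242, adjusted 0.918), and 0.72 without low-dose 1 and low-dose 2. Bhlhe41 had the lowest, -0.78 (exact permutation p = 0.0944, adjusted 0.425; rho -0.37, p = 0.497, adjusted 0.918), and -0.68 without the same libraries. None of those 9 relations passed the adjusted threshold.

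The genes most like Dbp in log2 CPM over the 15 libraries were Chic2 (r = 0.90), Zfp563 (0.86), Zfp959 (0.86), Csnk1a1 (0.86) and Zfp472 (0.85). Those most like Arntl were Dmtf1 (0.93), Lig3 (0.92), Zfp207 (0.91), Skp2 (0.91) and Zmynd11 (0.90). For Per2, added after its values were seen, they were Prdm15 (0.92), Klhl3 (0.92), Cyb561d1 (0.92), Cers6 (0.92) and Adgrl1 (0.91). These are the highest of many correlations over libraries that share group and regional content, so they are given as a description.

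Other genes of the clock loop, 18 in a list that held the Cry, ROR, casein kinase and F-box genes, mostly did not pass. By edgeR, MPTP against control and levodopa against MPTP called 0 of 18, against 0% of all genes in each. The high dose called 0 of 18 against MPTP and 0 of 18 against control, against 1.97% and 0.376% of all genes. At the low dose against MPTP, 1 of 18 fell, against 3.75% of all genes, and none rose: Fbxl21, which encodes an F-box protein that binds the CRY repressors, went from 8.18 ± 0.34 to 3.60 ± 1.00 CPM (log2 fold change -1.18, SE 0.28, edgeR adjusted p = 0.025). Rora, a receptor that activates Arntl, went from 184.9 ± 56.4 to 61.1 ± 14.1 CPM and did not pass (adjusted p = 0.0654). The repressor gene Cry2 was at 123.6 against 99.4 CPM (adjusted p = 0.152) and Npas2, a relative of Clock, at 30.6 against 11.4 CPM (adjusted p = 0.173). The median of the 18 genes was 0.06, against 0.00 over all genes.

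Against control, 2 of 18 fell at the low dose, against 2.66% of all genes: Fbxl21 (3.60 against 8.02 CPM, edgeR adjusted p = 0.0379) and Rora (61.1 against 253.8 CPM, adjusted p = 0.039). Rora is abundant in the cerebellum, and its level was 439 CPM in control 2 and 294 CPM in levodopa 2. It was 116 CPM in control 1 and 207 CPM in control 3, and 47.1 to 75.2 CPM in the low-dose libraries. The part of cerebellar content in this difference was not tested. Clock output genes, 11 in a list with Wee1, Nampt and Usp2, gave 0 of 11 calls in each of the 7 comparisons. Gys2 (0 to 17 reads per library) and Prok2 (0 to 63) had few reads, and Tsc22d3 and Pdk4 are also in the glucocorticoid list below. The share of all genes called in the 7 comparisons ran from 0% to 8.53%. The smallest p of the 11 genes at the low dose against MPTP was that of Wee1, a cell cycle kinase with E-boxes in its promoter, at 15.9 ± 2.08 against 20.6 ± 3.68 CPM (edgeR adjusted p = 0.151).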

How the data were processed

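Messenger RNA of mouse brain was sequenced from stranded libraries, 15 in 5 groups of 3. The files hold raw read counts for each gene symbol as deposited. The submitters' processing notes list StringTie 2.1.3b, HISAT2 2.1.0, Trimmomatic and bcl2fastq 2.20.0 and the build GRCm38/mm10. The annotation and the handling of strand and of shared reads were not given in the sources used here. Groups come from the sample labels.

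The deposited counts of genes kept by filterByExpr were scaled with TMM and fitted in edgeR 4.0.16 (R 4.3.3) as 1 quasi-likelihood model of the 5 groups with no covariate. P-values were adjusted by Benjamini-Hochberg over 21821 genes, with a threshold of 0.05. The standard error is the log2 fold change over the square root of F. Log2 CPM used a prior count of 2. The scripts were tested on simulated data. No library pair in a group agreed within sampling noise (smallest chi-square per degree of freedom 31.7). With at least 58149722 reads per library, each clock gene had at least 676 reads, so counting error was small beside the spread between libraries.

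The members and gene lists were chosen with earlier results of these data known. Named were all 10 clock genes, up to 4 genes of smallest p per list and comparison, and the 5 genes most correlated with Dbp and with Arntl (mean of at least 1 CPM, no predicted genes). Alternatives were other scalings and filters, DESeq2 1.42.0, a replicate block, regional scores of the cerebellum, cortex and thalamus lists as covariates, only the compared groups, both cerebellum-rich libraries left out and each library left out in turn. Promoter windows came from RefSeq and overlaps from GENCODE M21.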

Additional observations from a re-analysis of the deposited data

How the results depend on the processing

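With 1 clock gene called at the low dose against MPTP (Per2), the count was 0 without a filter on low counts (Per2 adjusted p = 0.0619; 3.69% of all genes called), 0 with the regional scores (0% of all genes), 0 with every single library left out, and 2 (Per1, Per2) without both cerebellum-rich libraries (23.7% of all genes) or with only the compared groups (20.8%). At the high dose against MPTP the count went from 0 to 1 without the cerebellum-rich libraries (Per2; 11.1% of all genes) and to 3 with only the compared groups (Per1, Per2, Nr1d1; 17.5%). At the low dose against control it went from 0 to 1 (Clock) with RLE (5.36% of all genes) or upper-quartile scaling (5.24%), the filter of 5 CPM (10.4%) or DESeq2 (12.9%), to 2 (Per2, Clock) without the cerebellum-rich libraries (8.33%), and from 0 to 1 with each library left out (1 without control 1, 6.45% of all genes). DESeq2 gave 1 (Clock) at the high dose against control (7.72% of all genes) and over the 5 groups (19.5%), where leaving out the cerebellum-rich libraries gave 1 (Per2; 15.7%). Replicate numbers do not mark paired samples by the labels, and in none of the 7 comparisons did all same-numbered libraries deviate together. A replicate block gave 0 calls at the low dose against MPTP (Per2 adjusted p = 0.0518; 7.9% of all genes), 1 at the low dose against control (Clock; 4.89%) and turned Nr1d1 for MPTP against control to 0.0279. Signs also turned for Nr1d1 there with regional scores (0.63), without the cerebellum-rich libraries (0.48) and over single libraries left out (-0.36 to 0.48). With regional scores they turned for Per1 (-0.19), Dbp (-0.20) and Arntl (-0.24) at the low dose and Per1 (-0.36) and Dbp (-0.0444) at the high dose against MPTP, and Per1 (-0.0534) at the low dose against control. Per3 at the low dose against MPTP ran from -0.0949 to 0.0192 over single libraries left out. Correlations with Arntl without the cerebellum-rich libraries were -0.0387 for Per1, -0.26 for Per2, -0.24 for Per3, -0.32 for Nr1d1, -0.0675 for Nr1d2 and -0.27 for Ciart. In the 6 inhibitor libraries with 1 left out they ran from -0.42 to 0.76 for Per1, -0.19 to 0.73 for Per2, -0.59 to 0.0782 for Dbp, -0.26 to 0.79 for Nr1d1, -0.55 to 0.29 for Nr1d2 and -0.13 to 0.0829 for Ciart. The cause of these differences was not tested. Of 70 fold changes (10 genes in 7 comparisons), 42 changed sign in at least 1 setting. No scaling moved the median of all genes by over 0.1 on the log2 scale.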

Other observations

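Genes known to respond to other cues that shift clocks were looked at beside Per1 and Per2. Of 12 genes induced by glucocorticoids, 2 rose at the low dose against MPTP, against 4.78% of all genes: Cdkn1a, a cell cycle inhibitor (13.5 ± 2.57 against 5.95 ± 0.51 CPM, SD, n = 3, edgeR adjusted p = 0.0154), and Ddit4, an inhibitor of mTOR signalling (37.6 ± 7.61 against 24.7 ± 2.64 CPM, adjusted p = 0.0467). None fell and the other 10 did not pass, with a median log2 fold change of 0.41 over the 12. Among those 10, Tsc22d3 was lower than with MPTP (97.7 against 115.2 CPM). At the high dose 1 of 12 rose, against 1.08% of all genes, and the other 11 did not pass: Ddit4 (45.3 CPM, edgeR adjusted p = 0.0283). Of 9 genes that respond to temperature, 2 rose at the low dose, against the same 4.78%: the near-identical heat shock genes Hspa1b (33.5 ± 23.9 against 5.80 ± 1.58 CPM, adjusted p = 0.00797) and Hspa1a (31.6 ± 21.6 against 8.65 ± 2.21 CPM, adjusted p = 0.0161), whose reads may be shared. None of the 9 fell and the other 7 did not pass.

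Of 9 markers of the suprachiasmatic nucleus, the brain's master clock, control 2 had 5 at 0 reads and levodopa 2 had 2. At the low dose against control none of the 9 rose and 1 fell, against 2.66% of all genes, while the median log2 fold change of the 9 was 1.56. The marker that fell was Lhx1 (1.39 against 27.6 ± 32.7 CPM, edgeR adjusted p = 0.0322), a transcription factor that the cerebellum also expresses. The neuropeptide genes Vip (18.8 against 3.58 CPM) and Grp (4.98 against 1.69 CPM) did not pass.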
